A study of Homo sapiens with 6 samples.

Results

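The genes described here are YAP1, its paralog WWTR1, the DNA-binding factor TEAD1 and 7 of their direct target genes, CTGF, CYR61, ANKRD1, AMOTL1, AMOTL2, LATS2 and AXL. They were chosen by gene symbol, with earlier results of these data known. All 10 were found among the 40205 genes of the count table (CTGF and CYR61 under these older symbols of CCN2 and CCN1). RNA-seq was run on cells labelled HepG2, a human liver cancer cell line, in 3 control samples that were not treated (Control-1, -2 and -3) and in 3 samples that received CLs for 24 h (CLs-1, -2 and -3). CLs are cationic liposomes made of the cationic lipid DOTAP, cholesterol and a PEG-linked phospholipid. The sample labels give the dose as 120 μM, while the study's text uses both μM and μg/ml for CLs. Both groups grew in the same serum-containing medium, and the labels name no genetic change in either. The labels do not say that the samples of a group were separate cultures, and the study's text calls them independent without saying how, so the p-values measure the spread between these 6 samples, which may be technical. Samples of 1 group differed by more than counting noise, with a chi-square per degree of freedom of 8.19 to 34.8 between them.

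YAP1 encodes YAP and WWTR1 encodes TAZ, transcriptional coactivators that do not bind DNA themselves and act mainly through the TEAD family of DNA-binding proteins. The Hippo kinases control them: MST kinases (STK3 and STK4) with SAV1 activate LATS kinases with MOB1, and LATS kinases phosphorylate YAP and TAZ, which are then held in the cytoplasm or degraded. Cell spreading, actin tension and cell contacts feed into this control, and in the liver YAP is known for its part in organ size and tumour growth. An mRNA count does not measure the phosphorylation or the location of YAP, which are the steps this pathway regulates.

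The libraries held between 11418527 and 13998946 counts, and 15047 genes had enough reads to be tested. Values are CPM, the counts scaled to the TMM-adjusted library total. The defining markers of the labelled cell type were almost absent: the 13 hepatocyte markers together had 3 to 17 counts in 5 libraries and 148 in CLs-1, and ALB, the gene of albumin, had 0 counts in all libraries but CLs-1, with 8. The 5 epithelial markers did not go together. EPCAM and CDH1, surface genes, had at most 9 counts in any library and KRT19 at most 61, while the keratin genes KRT8 and KRT18 had between 9024 and 29346. The summed level of these 5 was 3175 to 4782 CPM in the control samples and 1420 to 1961 CPM in the CLs-treated samples, so it was lower along with the genes described here, and its part in their values was not tested. KRT8 and KRT18 had log2 fold changes of -1.21 and -1.19 with groups apart, and each had an adjusted p of 0.0508. The 7 stromal markers were split as well: COL3A1 had between 7456 and 11358 counts, COL1A1 and PDGFRB were also present, and DCN, LUM and THY1 had at most 5 counts outside CLs-1. CLs-1 also held reads of marker genes of other cell types, and the source of these reads was not tested. It had 476 counts of the 3 globin genes HBA1, HBA2 and HBB against 0 to 4 elsewhere. Of COL1A2 it had 1044 counts against 0 to 2. The fold changes of the 10 genes and the medians of the lists are therefore also given without CLs-1.

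None of the 10 genes met both limits for a call by edgeR's quasi-likelihood test on condition alone, a Benjamini-Hochberg adjusted p under 0.05 and a fold above 1.5 or below 0.67. A fit with a block for the replicate number did call some of them, as given in the closing section. Over all genes tested, 0.0864% were called in either direction and 0.0731% were called as lower. Before adjustment 6 of the 10 genes had a p-value under 0.05, all lower with CLs, against 5.81% of all genes in either direction and 3.62% lower. Because the 10 were chosen with earlier results of these data known, the counts in this paragraph describe them and do not test them as a set. These 6 were CTGF, CYR61, ANKRD1, AMOTL1, AMOTL2 and LATS2, all of them targets. DESeq2's Wald test called 1 of the 10, LATS2, with an adjusted p of 0.0185, where it called 0.753% of all genes in either direction and 0.645% as lower. Without a filter on low counts edgeR called 2 of the 10, CTGF and CYR61, with adjusted p-values of 0.000252 and 1.36e-06, where 0.672% of all genes were called in either direction and 0.444% as lower. All 10 fitted log2 fold changes were below 0, with a median of -0.62 and a range of -1.71 to -0.05. Over all genes tested the median was 0.01, and 47.9% were below 0. In 4 of the 10 (CTGF, CYR61, AMOTL1 and LATS2) the CLs-treated samples all lay below the control samples. Of all genes tested, 6.18% had CLs-treated samples all below the controls, and 11.5% had groups apart in either direction. Without CLs-1 the median of the 10 was -0.68, and in the 5 other fits that left out 1 sample it lay between -0.64 and -0.54. The number of the 10 genes below 0 was 8 without CLs-2, 9 without CLs-3 or Control-3 and 10 in the other 3 fits.

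**Figure D1:**
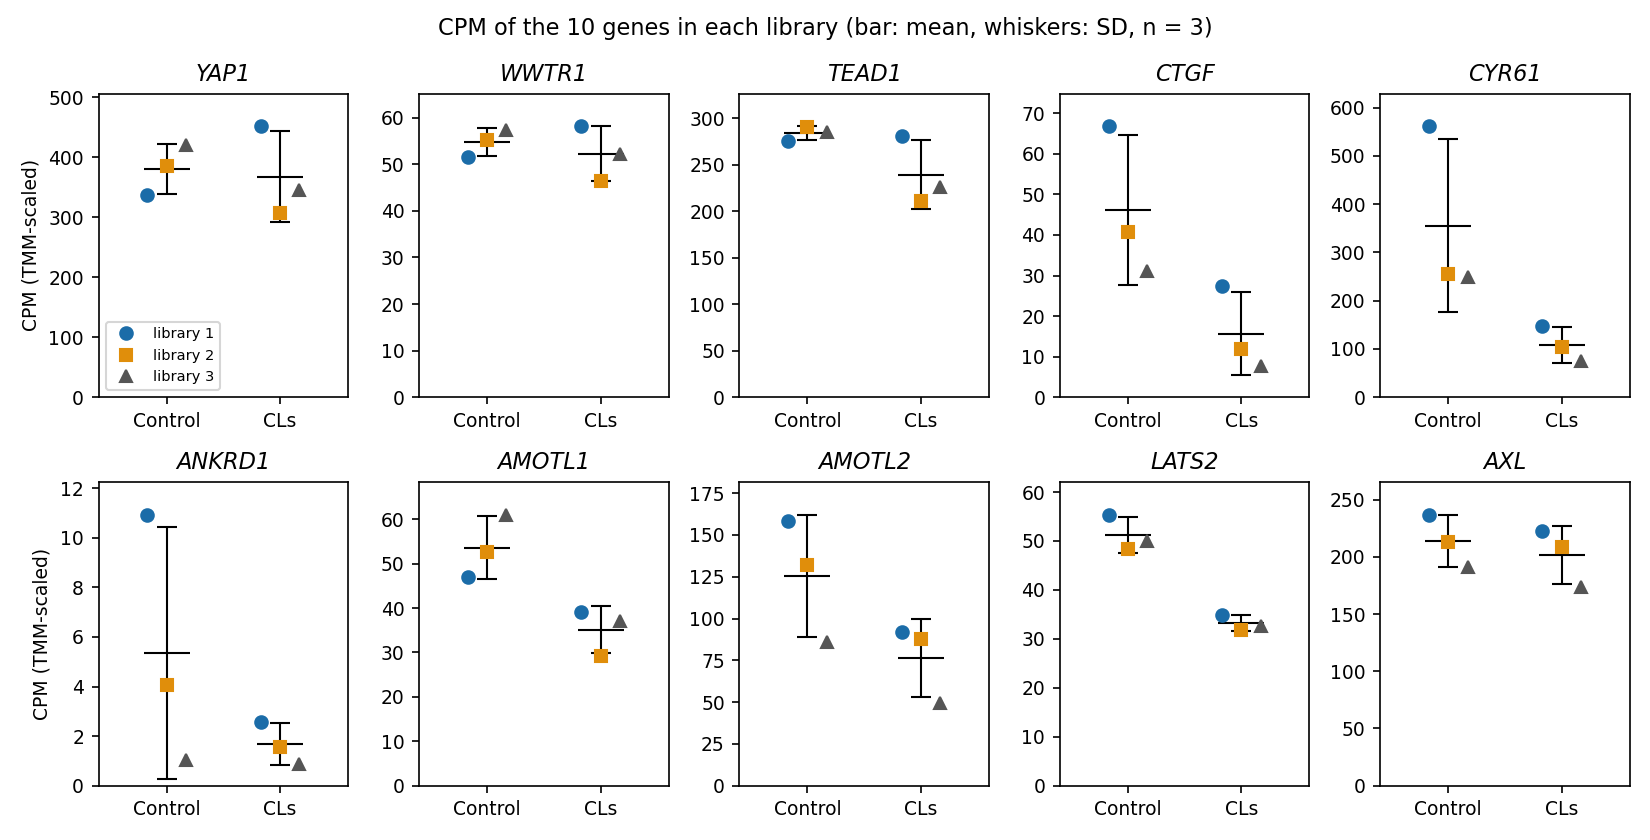
CPM of the 10 genes (vertical axes, each from 0) in the 3 Control and 3 CLs libraries, with the mean and SD of each group (n = 3); point shape and colour give the library number. CTGF, CYR61, AMOTL1 and LATS2 show no overlap between the groups, and YAP1, WWTR1 and AXL overlap almost fully.

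The coactivators and TEAD1 had 538 counts or more in every library, and none of them reached a p-value under 0.05. The CPM of YAP1 was 337, 385 and 420 in the control samples 1, 2 and 3 and 452, 306 and 345 in the CLs-treated samples 1, 2 and 3. The highest and the lowest value were both in the CLs-treated group, so the groups overlapped. Its log2 fold change was -0.05 (95% interval -0.41 to 0.32, standard error [SE] 0.17, adjusted p = 0.998 by the quasi-likelihood test of edgeR). WWTR1 had 51.5, 55.2 and 57.5 CPM in the control samples and 58.2, 46.5 and 52.1 CPM in the CLs-treated samples. Its log2 fold change was -0.06 (SE 0.14, 95% interval -0.37 to 0.24, adjusted p = 0.998). The sign of YAP1 and of WWTR1 depended on which sample was left out, and without CLs-1 their log2 fold changes were -0.22 and -0.15. An antisense gene, WWTR1-AS1, had 5 to 10 counts per library against 538 to 841 for WWTR1. The strand setting of the counting is not given, so these counts set no limit on reads lost where the genes overlap. Such a loss was not tested.

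TEAD1 binds the DNA sites through which YAP and TAZ act. It had 276, 291 and 285 CPM in the control samples and 281, 211 and 226 CPM in the CLs-treated samples, so that CLs-1 lay among the controls and the other CLs-treated samples below them. The log2 fold change of TEAD1 was -0.25 (SE 0.14, 95% interval -0.56 to 0.06, adjusted p = 0.927), and it ran from -0.38 without CLs-1 (adjusted p = 0.374) to -0.16 without CLs-2 (adjusted p = 0.999).

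CTGF and CYR61 encode secreted matricellular proteins of the CCN family and are widely used readouts of YAP and TEAD activity. The CPM of CYR61 was 562, 256 and 248 in the control samples and 148, 103 and 74.3 in the CLs-treated samples, each in the order of their numbers. Every CLs-treated sample lay below every control sample, and Control-1 stood well above the other controls. The mean CPM was 355.2 ± 178.8 without and 108.3 ± 36.9 with CLs (SD, n = 3 in each group). CYR61 had a log2 fold change of -1.71 (SE 0.33, 95% interval -2.43 to -1.0, adjusted p = 0.0987), a level 3.28-fold lower. This was the smallest adjusted p-value of the 10 genes, and 11 genes of the 15047 had a lower log2 fold change. Without Control-1 the log2 fold change was -1.22 (adjusted p = 0.155), and without CLs-1 it was -2.0 (adjusted p = 0.196).

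CTGF had 66.9, 40.7 and 31.2 CPM in the control samples and 27.3, 11.9 and 7.80 CPM in the CLs-treated samples. The groups did not overlap, but CLs-1 came close to Control-3. The mean CPM was 46.2 ± 18.5 without and 15.7 ± 10.3 with CLs (SD, n = 3 in each group), and the log2 fold change was -1.55 (SE 0.40, 95% interval -2.43 to -0.67, adjusted p = 0.288). CLs-1 held 395 counts of CTGF against 138 and 89 in CLs-2 and CLs-3. Without it the log2 fold change was -2.23 (adjusted p = 0.119), and without Control-1 it was -1.18 (adjusted p = 0.610).

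ANKRD1 encodes an ankyrin repeat protein of the nucleus and of muscle, which is induced by stretch and by YAP. It was the gene with the fewest reads, with 126, 47 and 12 counts in the control samples and 37, 18 and 10 counts in the CLs-treated samples. In CPM these were 10.9, 4.06 and 1.03 against 2.56, 1.56 and 0.876, and Control-3 lay below CLs-1 and CLs-2. The controls thus spanned a 10.6-fold range, wider than the difference between the group means. Its log2 fold change was -1.65 (SE 0.66, 95% interval -3.10 to -0.19, adjusted p = 0.760). This value rested on Control-1, without which it was -0.58 (adjusted p = 0.947), while it was -2.13 without Control-3 and -2.12 without CLs-1.

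TEAD proteins bind the letters GGAATG, or CATTCC on the other strand. The promoters of CTGF, ANKRD1 and AMOTL2 are shown as those of targets with lower fitted levels that hold these letters, and that of LATS2 as one that does not. The RefSeq table of promoters on GRCh38.p14 held 11 promoters for 8 of the 10 genes, and CYR61 and TEAD1 were not among them. The 250 bases before the start of transcription were searched on both strands. They are printed from 5′ to 3′ in the direction of the gene, with GGAATG or CATTCC in capitals. The promoter of CTGF lies at chr6:131951373-131951622 on the minus strand, ANKRD1 at chr10:90921088-90921337 on the minus strand, the downstream promoter of AMOTL2 at chr3:134374448-134374697 on the minus strand and LATS2 at chr13:21061587-21061836 on the minus strand. The count table itself was made on another build and carries no coordinates.
CTGF: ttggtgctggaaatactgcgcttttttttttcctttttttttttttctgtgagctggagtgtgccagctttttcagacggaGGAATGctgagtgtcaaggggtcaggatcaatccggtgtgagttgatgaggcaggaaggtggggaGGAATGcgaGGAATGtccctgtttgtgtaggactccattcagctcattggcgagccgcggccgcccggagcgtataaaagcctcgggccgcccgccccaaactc
ANKRD1: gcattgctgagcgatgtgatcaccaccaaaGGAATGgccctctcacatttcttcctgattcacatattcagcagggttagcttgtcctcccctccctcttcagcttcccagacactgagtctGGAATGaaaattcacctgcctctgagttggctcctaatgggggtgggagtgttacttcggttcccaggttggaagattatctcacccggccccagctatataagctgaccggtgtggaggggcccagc
AMOTL2: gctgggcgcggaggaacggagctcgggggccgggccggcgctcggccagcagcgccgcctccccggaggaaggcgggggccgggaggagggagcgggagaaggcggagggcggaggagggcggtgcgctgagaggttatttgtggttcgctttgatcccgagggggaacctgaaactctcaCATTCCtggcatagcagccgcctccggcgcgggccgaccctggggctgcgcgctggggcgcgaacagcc
LATS2: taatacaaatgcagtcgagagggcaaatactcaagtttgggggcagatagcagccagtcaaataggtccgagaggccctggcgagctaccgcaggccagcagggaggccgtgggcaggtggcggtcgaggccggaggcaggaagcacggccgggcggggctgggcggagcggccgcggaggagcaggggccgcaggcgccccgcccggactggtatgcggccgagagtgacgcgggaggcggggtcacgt

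The CTGF promoter held 3 of these matches, beginning at positions -169, -104 and -95 from the start, and that of ANKRD1 held 2, beginning at -220 and -128. The AMOTL2 promoter shown, 1 of the 2 promoters of AXL and that of YAP1 held 1 match each. The promoters of AMOTL1, LATS2 and WWTR1 and the other promoters of AMOTL2 and AXL held none in this window. Of all 35114 promoters in the table, 11.9% held at least 1 match in the same window and 0.940% held 2 or more. A loose pattern for AP-1 sites, TGANTCA with any middle base, was found in the ANKRD1 promoter alone among the 11, as TGATTCA. It was found in 6.57% of all promoters, a share that counts every middle base. No promoter of the 8 genes held a CArG box, the site of SRF, which 1.16% of all promoters held. A match describes the sequence and does not show that a factor was bound in these cells.

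**Figure D2:**
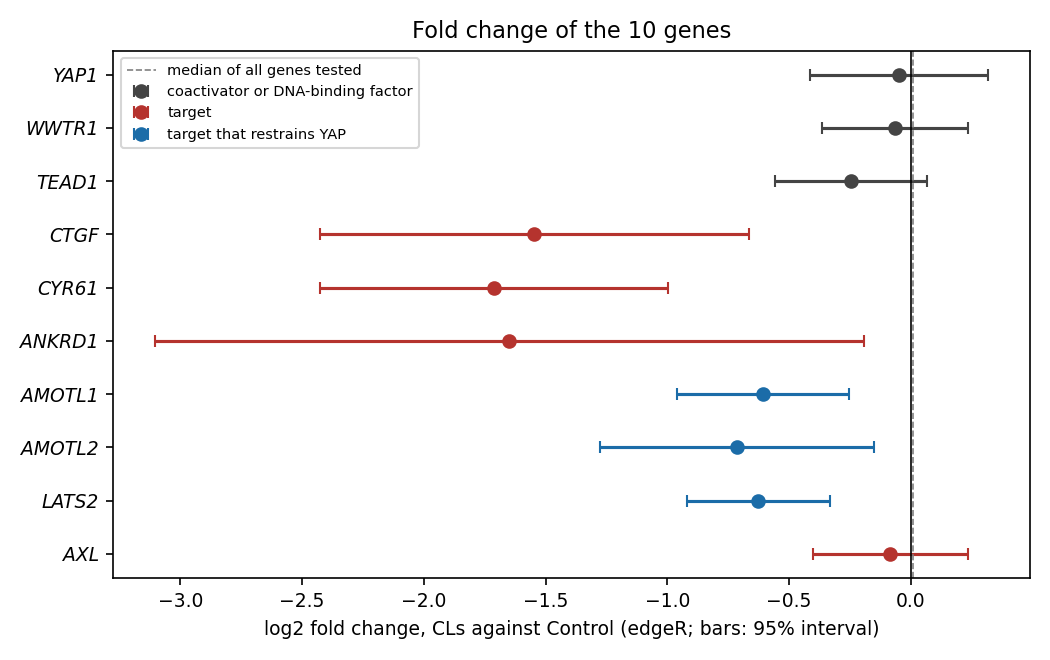
Fitted log2 fold changes of the 10 genes (horizontal axis, CLs against Control) with 95% intervals from edgeR; colours give the role of each gene, and the dashed line is the median of all 15047 genes tested, 0.01. The intervals of CTGF, CYR61, ANKRD1, AMOTL1, AMOTL2 and LATS2 lie below 0 before any adjustment for multiple testing, and those of YAP1, WWTR1, TEAD1 and AXL include it.

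AMOTL1, AMOTL2 and LATS2 are targets whose products restrain YAP in turn: the angiomotin-like proteins bind YAP at junctions and actin, and LATS2 is a kinase that phosphorylates it. LATS2 had 55.4, 48.4 and 49.9 CPM in the control samples and 35.0, 31.9 and 32.7 CPM in the CLs-treated samples. The groups were far apart relative to their spread, with means of 51.3 ± 3.67 and 33.2 ± 1.59 CPM (SD, n = 3 in each group). Its log2 fold change was -0.63 (SE 0.13, 95% interval -0.92 to -0.33, adjusted p = 0.173), and it lay between -0.67 and -0.57 in the 6 fits that each left out 1 sample.

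AMOTL1 had 47.1, 52.6 and 61.1 CPM in the control samples and 39.1, 29.2 and 37.1 CPM in the CLs-treated samples. The CLs-treated samples all lay below the controls, with a log2 fold change of -0.61 (SE 0.16, 95% interval -0.96 to -0.25, adjusted p = 0.301). AMOTL2 had 158.4, 132.1 and 85.8 CPM in the control samples and 92.1, 87.5 and 49.5 CPM in the CLs-treated samples. Here Control-3 lay below CLs-1 and CLs-2, so the groups overlapped, and the log2 fold change was -0.71 (SE 0.26, 95% interval -1.28 to -0.15, adjusted p = 0.653). Without CLs-1 the log2 fold changes of LATS2, AMOTL1 and AMOTL2 were -0.67, -0.69 and -0.87. That of AMOTL2 was -0.48 without CLs-3 and -0.93 without Control-3.

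AXL, a receptor tyrosine kinase listed as a YAP target in several cell types, had the smallest difference among the 7 targets. Its CPM was 237, 213 and 191 in the control samples and 222, 209 and 173 in the CLs-treated samples, and the groups overlapped. The log2 fold change was -0.09 (SE 0.14, 95% interval -0.40 to 0.23, adjusted p = 0.998), and it ran from -0.16 without CLs-1 to 0.01 without CLs-3. Whether AXL differed from the other targets was not tested.

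Relative to YAP1 in the same library, a ratio computed after the values were seen, CTGF, CYR61, AMOTL1 and LATS2 had CLs-treated samples that all lay below the controls. These same genes had groups apart in CPM, so the ratio is not separate support. It was computed for the 7 targets only, and its share over all genes is not known. YAP1 was highest in CLs-1, at 452 CPM, which lowers the ratio of any gene there. The log2 ratio of CYR61 to YAP1 was 0.74, -0.59 and -0.76 in the control samples and -1.61, -1.57 and -2.21 in the CLs-treated samples. For CTGF it was -2.33, -3.24 and -3.75 against -4.05, -4.68 and -5.47. The difference of the means was -1.60 for CYR61, -1.62 for CTGF, -0.56 for LATS2 and -0.55 for AMOTL1, with an exact two-sided permutation p = 0.1 for each, the smallest that 3 samples against 3 allow. For AMOTL2, ANKRD1 and AXL the ratios overlapped between the groups, with exact permutation p-values of 0.2, 0.5 and 0.9. These 7 ratios share their denominator, and their p-values were not adjusted, since none could pass 0.05. Without CLs-1 the difference was -1.69 for CYR61, -1.97 for CTGF, -0.44 for LATS2 and -0.47 for AMOTL1, and that of AXL turned from -0.03 to 0.06.

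The levels of different genes can be compared only per length, here as CPM per kilobase of annotated exons. In the control group CYR61 had the highest level of the 10 at 155 ± 78.1 CPM per kilobase (SD, n = 3), followed by YAP1 at 67.6 ± 7.39, AXL at 43.7 ± 4.67 and TEAD1 at 30.7 ± 0.823. AMOTL2 and CTGF followed at 26.2 ± 7.69 and 19.8 ± 7.90, and the control samples of AMOTL2 overlapped with those of both TEAD1 and CTGF. WWTR1 and LATS2 lay at 10.2 ± 0.560 and 9.30 ± 0.666 and overlapped as well. AMOTL1 had 5.95 ± 0.783 CPM per kilobase and ANKRD1 2.70 ± 2.57, again with overlap.

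The spread within the groups was itself unequal among the 10 genes. CTGF, CYR61, ANKRD1, AMOTL2 and AXL were highest in the library numbered 1 and lowest in the library numbered 3 of both groups, a pattern held by 6.53% of all genes tested. CTGF in CLs-1 lay 1.00 above its group mean on the log2 scale, and ANKRD1 in Control-3 lay 1.80 below its own, at -1.80. YAP1, WWTR1, TEAD1, AMOTL1 and LATS2 did not have this pattern. CLs-1 was the highest CLs-treated sample in all 10 genes, as it was in 39.9% of all genes tested. The part that the marker reads described above for CLs-1 had in this was not tested. Fewer cells of a type and less RNA per cell cannot be told apart in bulk RNA.

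**Figure D3:**
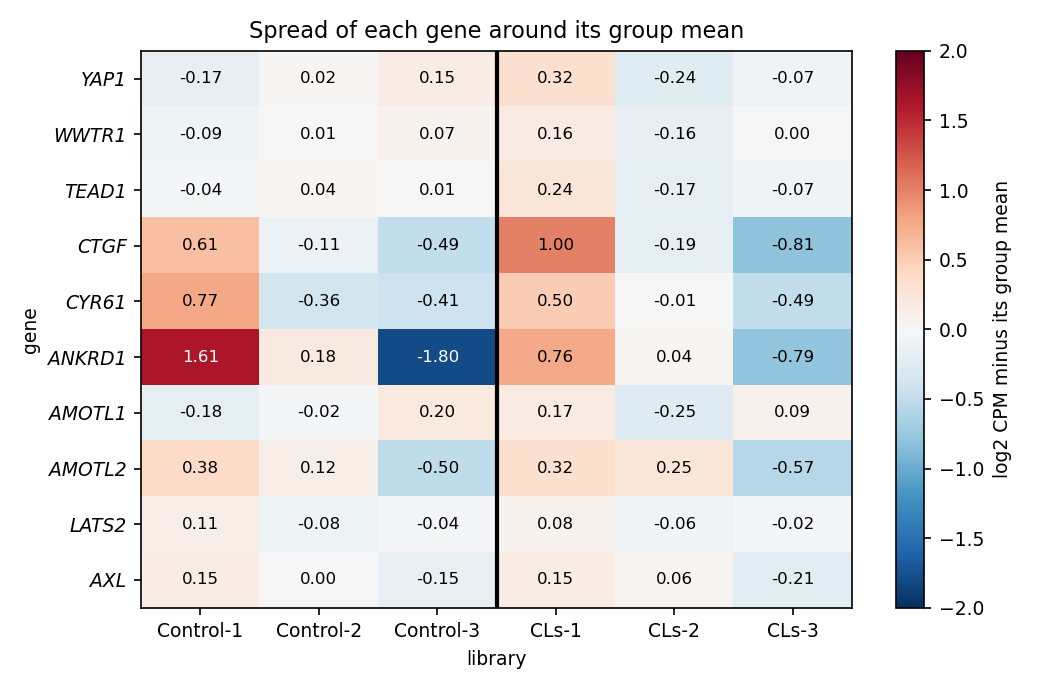
Deviation of each gene's log2 CPM from the mean of its own group (colour and printed value) in the 6 libraries. CTGF, CYR61, ANKRD1 and AMOTL2 lie above their group mean in Control-1 and CLs-1 and below it in Control-3 and CLs-3, while the largest deviation of LATS2 is 0.11, in Control-1.

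The rest of the Hippo pathway was followed in lists of 46 genes, of which 39 had enough reads. These lists were also chosen with earlier results of these data known, so their counts beside the shares of all genes are a description only. No gene of these lists was called by edgeR's quasi-likelihood test. Before adjustment 14 lower genes and 1 higher gene had a p-value under 0.05, and DESeq2's Wald test called 3 lower ones, WWC1, IGFBP3 and CRIM1. Over all genes tested these shares were 3.62% lower and 5.81% in either direction before adjustment, and 0.645% called as lower by DESeq2. Of the 39 genes, 36 had a log2 fold change below 0, with a median of -0.23. Over all genes tested 47.9% were below 0, the share to set beside each list described next. Without CLs-1 the medians of the TEAD, kinase, upstream and target lists described next were -0.29, -0.27, -0.47 and -0.40. Groups with all CLs-treated samples below the controls, counted in each list, made up 6.18% of all genes tested.

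The other TEAD and VGLL genes had a median log2 fold change of -0.21, which was -0.035 without Control-3. Among them, TEAD3 had 60.5, 57.2 and 56.6 CPM in the control samples and 40.2, 47.8 and 47.4 CPM in the CLs-treated samples. All CLs-treated samples lay below the controls, at a log2 fold change of -0.36 (SE 0.13, adjusted p = 0.654), and of -0.29 without CLs-1. TEAD2 and TEAD4 had log2 fold changes of -0.12 and -0.21, with overlapping groups. VGLL4, which competes with YAP for TEAD, was at 36.3 ± 3.74 CPM in the control group and 37.4 ± 4.41 CPM in the CLs-treated group (SD, n = 3), a log2 fold change of 0.04. That of VGLL3 was -0.22 (-0.45 without CLs-1), and VGLL1 had 0 counts in all 6 libraries, where 3 counts correspond to 0.214 to 0.263 CPM.

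In the core kinase module all 6 listed genes were tested and 5 were below 0, with a median log2 fold change of -0.13 and a smallest adjusted p of 0.939. LATS1, the paralog of LATS2, had a log2 fold change of -0.17 (SE 0.22), and the MST kinases STK3 and STK4 had -0.23 (SE 0.20) and -0.08 (SE 0.20). Without CLs-1 these were -0.46, -0.35 and -0.30, and 6 of the 6 genes were below 0. SAV1, the scaffold of these kinases, was the 1 gene of the module whose groups were apart, at -0.29 (SE 0.17). Without CLs-2 the median of the module was 0.04 and 3 of the 6 genes were below 0.

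Of the 14 upstream regulators 12 were tested, all with log2 fold changes below 0 and a median of -0.39. In 6 of them the CLs-treated samples lay below the controls, against 6.18% of all genes tested. Without CLs-2 or without Control-3, 11 of the 12 were below 0. WWC1, which encodes the scaffold KIBRA that promotes LATS activity, had 94.5, 80.7 and 85.9 CPM in the control samples and 64.8, 59.3 and 50.9 CPM in the CLs-treated samples (log2 fold change -0.58, SE 0.14, adjusted p = 0.257), and its log2 fold change was -0.66 without CLs-1. FRMD6 and PTPN14, both linked to junctions and the restraint of YAP, were at -0.55 and -0.51, and the groups of PTPN14 overlapped.

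Of 15 other genes of a YAP and TEAD target signature 14 were tested, all with log2 fold changes below 0 and a median of -0.29. In 7 of them the CLs-treated samples lay below the controls, against 6.18% of all genes tested. Without Control-1 there were 11 of the 14 below 0. IGFBP3, a secreted binding protein of insulin-like growth factors, had 701.4, 504.0 and 392.1 CPM in the control samples and 292.7, 248.2 and 141.5 CPM in the CLs-treated samples. Its log2 fold change was -1.23 (SE 0.27, adjusted p = 0.180). NUAK2, a kinase of actomyosin tension, was at 10.3 ± 0.166 CPM in the control group and 5.71 ± 0.299 CPM in the CLs-treated group (SD, n = 3), a log2 fold change of -0.85 (adjusted p = 0.201). CRIM1, a transmembrane protein with cysteine-rich repeats, was at -0.65 (adjusted p = 0.205). Without CLs-1 the log2 fold changes of IGFBP3, NUAK2 and CRIM1 were -1.45, -0.82 and -0.80. Of the 4 other CCN genes 2 had enough reads. NOV (CCN3) had 70.9, 54.9 and 28.5 CPM in the control samples and 97.3, 65.9 and 71.6 CPM in the CLs-treated samples, a log2 fold change of 0.61 (SE 0.27, adjusted p = 0.851) with overlapping groups, and WISP2 (CCN5) was at -0.07. Without CLs-1 they were 0.42 and 0.035, so the sign of WISP2 turned.

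SRF, which responds to actin and shares the targets CTGF and CYR61 with YAP, was set beside them in a list of 15 genes, SRF itself and 14 of its cytoskeletal targets. SRF had a log2 fold change of -0.36 (SE 0.14, adjusted p = 0.736). Of the targets 13 were tested, with a median log2 fold change of -0.59 (-0.55 without CLs-1) and 12 of 13 below 0, against 47.9% of all genes tested. The CLs-treated samples lay below the controls in 10 of them, against 6.18% of all genes. The lowest log2 fold changes were those of TPM1, TAGLN and CNN2 at -0.96, -0.76 and -0.71, with adjusted p-values of 0.206, 0.998 and 0.105 by edgeR. The groups of TAGLN overlapped, its controls spanned a 9.49-fold range, and its log2 fold change was -0.19 without Control-1. None of the 13 was called by edgeR, and 10 had a p-value under 0.05 before adjustment, all lower, against 3.62% of all genes. DESeq2 called 6 (ACTB, ACTG1, CNN2, TPM1, FHL2 and ZYX), against 0.645% of all genes called as lower. The study had already named CNN2 and FHL2 as differentially expressed in these same data. The list was chosen with earlier results known, so these calls are not separate support.

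**Figure D4:**
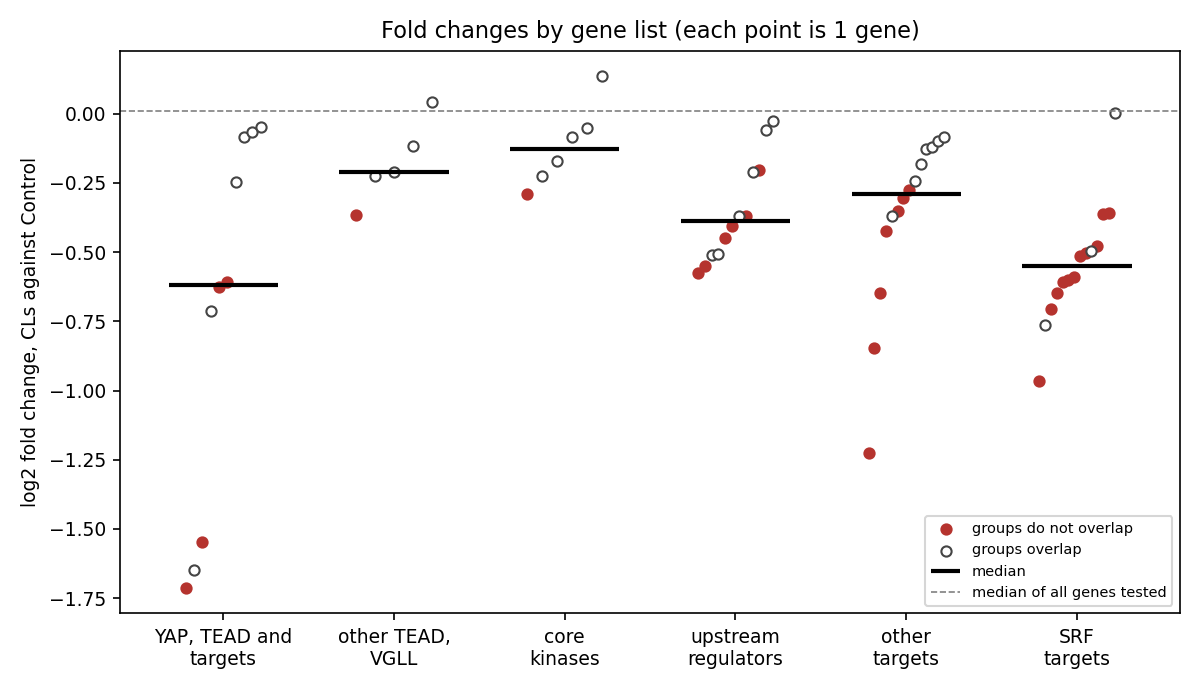
Log2 fold changes (vertical axis, CLs against Control) of the genes tested in 6 lists, with filled points where the 3 CLs and 3 Control libraries do not overlap, black bars at the list medians and a dashed line at the median of all genes, 0.01. The medians are -0.62, -0.21, -0.13, -0.39, -0.29 and -0.55 from left to right, where the last list includes SRF itself, and the points of CTGF, CYR61 and ANKRD1 lie lowest.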

How the data were processed

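The authors sequenced single-end Ion Proton libraries, aligned them with MapSplice after filtering, and deposited raw counts, whole numbers of reads per gene symbol, without normalization. The submitters' processing notes list HTSeq 0.6.1 and the builds hg19 and GRCh37. The strand setting and the treatment of reads with several matches are not given in the sources used here. All 6 columns were matched to samples by name.

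Counts were compared with edgeR 4.0.16 in R 4.3.3 (filterByExpr, TMM scaling, quasi-likelihood F test on condition alone, Benjamini-Hochberg adjustment over 15047 genes). Genes were called at an adjusted p under 0.05 and a fold above 1.5 or below 0.67, the limits of the study, which used EBSeq, not installed here. Standard errors and 95% intervals were derived from the F statistic. Exact permutation tests ran over 20 regroupings. DESeq2 1.42.0 (whose adjusted p-values left as missing stayed so), RLE scaling, library totals, other filters, calls without the fold limit, a block for the replicate number and fits leaving out 1 sample were the alternatives. The scripts were tested on simulated data with 1 dispersion for all genes. There edgeR called 122 of 197 genes changed 2-fold and 197 of 197 changed 4-fold, with 7 and 9 false calls. These rates need not hold for CTGF, CYR61 and ANKRD1, whose standard errors of 0.40, 0.33 and 0.66 were the largest of the 10. Smaller changes, such as those fitted for LATS2, AMOTL1 and AMOTL2, were not simulated.

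The 10 genes and all lists were chosen with earlier results of these data known. The genes named are the 10, TEAD2, TEAD3, TEAD4, LATS1, STK3, STK4, VGLL4 and, in each other list, any gene called and the 3 largest absolute fold changes. Cell type markers are given as levels. Genes named beside a count of DESeq2 calls, SRF, KRT8 and KRT18 were named after their values were seen. Exon lengths are the union of exons in GENCODE release 29 on GRCh38, another build than that of the counts, so levels per kilobase are approximate. Floors of 3 counts cover counting error only. The ratios to YAP1, also without CLs-1, and the SRF targets without SRF were added after seeing the data. Sums of the steroidogenic, endothelial and leukocyte markers are given in the closing section.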

Additional observations from a re-analysis of the deposited data

How the results depend on the processing

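DESeq2 called 1 of the 10 genes (LATS2), 3 genes of the other Hippo lists, and 90 lower and 15 higher genes over all genes. Without the filter on low counts edgeR called 2 of the 10 (CTGF and CYR61), 2 of the lists, and 113 lower and 58 higher over all genes. With library totals only, 6 lower genes were called over all genes. RLE scaling, the filter at 1 CPM and no fold criterion moved none of these counts by over 1.5 times. With the replicate block edgeR called 3 of the 10 (CTGF, CYR61 and AMOTL2, with adjusted p-values of 0.00110, 0.000376 and 0.0354). It also called 1 gene of the lists (IGFBP3), and 56 lower and 12 higher genes among the 15047 tested. The samples were not taken as paired. Over all genes tested, the deviations of same-numbered samples from their group means correlated at 0.111, 0.0987 and 0.305. However, 6 of 6 samples correlated best with the sample of their own number. Among the 10 genes, CTGF, CYR61, ANKRD1, AMOTL2 and AXL followed the library number in both groups, and the others did not. In the 6 fits that left out 1 sample, none of the 10 genes and none of the lists was called, the median of the 10 lay between -0.68 and -0.54, and 2 to 6 lower and 1 to 3 higher genes were called over all genes. In these fits the log2 fold change ran from -0.22 to 0.067 for YAP1 (above 0 at 0.029 without Control-3 and 0.067 without CLs-2), from -0.15 to 0.013 for WWTR1 (above 0 without CLs-2) and from -0.16 to 0.012 for AXL (above 0 without CLs-3). Of 120 values of single genes under alternatives, 110 kept sign and call, 6 became called and 4 changed sign. The cause of these changes was not tested. ANKRD1 had the fewest reads, at 10 to 126 counts, and its controls spanned a 10.6-fold range. The other genes had at least 89 counts in every library.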

Other observations

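Markers of other cell types that the labelled line should lack were summed in each library. The 5 steroidogenic genes (STAR, CYP17A1, CYP11A1, CYP11B1 and HSD3B2) had 466 counts in CLs-1 and 11 to 32 in the other libraries. The 3 endothelial genes had 43 counts in Control-3, of which 36 were CDH5, and at most 5 elsewhere. Of the 3 leukocyte genes, CD68 accounted for nearly all of the 150 to 292 counts, and CD3E had 0 counts in all 6 libraries. The stromal list of 7 genes, in which COL3A1 held most of the counts, had a summed level of 730 to 1098 CPM in the control samples and 808 to 954 CPM in the CLs-treated samples.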
